A study of Mus musculus with 6 samples.

Results

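Keratinocyte differentiation transcription factors are described here in whole skin of JunBΔep and control mice. The members are 9 genes taken by symbol from a table of 23951 genes, Trp63, Klf4, Grhl1, Grhl3, Ovol1, Prdm1, Cebpa, Cebpb and Maf, and each symbol had 1 row. RNA sequencing was done on poly(A) RNA of skin from 3 mice labelled JunB dep and 3 littermates labelled JunB +/+, all C57Bl/6 and 6 to 7 months old. JunBΔep mice carry a Junb allele that was removed by a Cre under the keratin 5 promoter, so the deletion is in keratinocytes of the basal layer and their progeny. The other cells of whole skin keep the gene. The mutant skin was taken from lesions, according to the study, and the labels leave unsaid whether the controls carried Cre. Libraries are named by genotype and by a replicate number, 0, 1 or 2, and values given across a group are in that order.

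The epidermis renews itself from a basal layer. Cells that leave it pass through a spinous and a granular layer and end as cornified envelopes. p63, made from Trp63, keeps basal cells in the stratified epithelial fate and opens the program. The grainyhead factors Grhl1 and Grhl3, the zinc finger proteins Klf4, Ovol1 and Prdm1 (Blimp1), the C/EBP factors and the large Maf factors act later, on the exit from the cell cycle, on junctions and on the genes of the barrier. JunB is a subunit of AP-1, which binds many of the same late genes. Several of the 9 are also used outside the epidermis. Cebpa works in fat cells, liver and sebocytes, Cebpb in fat and myeloid cells, and Prdm1 and Maf in lymphocytes, macrophages and hair follicles.

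Every one of the 9 factors had a higher mean in JunBΔep skin, yet for none were all 3 JunBΔep mice above all 3 controls, and none passed the test. Grhl3, Ovol1 and Cebpb differed most between the group means, by 2.13-fold, 1.98-fold and 1.90-fold. That order rested on JunBΔep replicate 0, without which the log2 differences were 0.30, 0.51 and 0.24 for these genes and the highest was that of Cebpa, at 0.60. The mouse labelled JunBΔep replicate 0 had the highest Klf4, Grhl3, Ovol1 and Cebpb of the 6 libraries. Replicate 1 had the highest Trp63, Grhl1, Prdm1 and Maf, and replicate 2 the highest Cebpa. Of the 9 factors, 5 were above every control in 2 of the JunBΔep mice, Trp63, Ovol1, Prdm1 and Maf in replicates 0 and 1 and Klf4 in replicates 0 and 2, and the other 4 in 1 mouse.

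Values are FPKM, mapped fragments scaled to transcript length and to 1000000 fragments, as the authors deposited them. They were compared on the log2(FPKM + 0.5) scale with limma over all 17021 genes averaging 0.1 FPKM or more, with Benjamini-Hochberg adjustment over all of them. All 9 members were in that set. The limma test called 0% of the tested genes higher and 1.38% lower in JunBΔep skin at an adjusted p below 0.05, and 0 of the 9 members in either direction. Before adjustment, 243 genes were higher and 1044 lower at 0.05, and 0 of these were members. The adjusted p-values of the members ran from 0.719 to 0.944. The smallest two-sided p that exact permutation allows for 3 mice against 3 is 0.1. Of all tested genes, 5.62% had every JunBΔep mouse above every control and 9.16% had every JunBΔep mouse below, and 0 of the 9 members did either. The median log2 difference of the members was 0.37, beside 0.03 over all tested genes, of which 53.4% had a positive difference.

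The libraries differ in what they hold, and these values stand beside the results. The number of reads is not known, and FPKM sum to 481078 to 630363 per library. Junb itself was at 59.3, 72.4 and 56.9 FPKM across the controls, with 42.8 and 28.0 FPKM for JunBΔep replicates 1 and 2. Replicate 0 had 129.6 FPKM, above every control, although its label would predict less. Other cells of whole skin keep Junb, so this value cannot show whether the label is right. The library labelled JunBΔep replicate 0 also held 6 of the 7 cases in which a gene is listed at 0 FPKM beside at least 3 FPKM in the 5 other libraries, Krt14 among them. Keratinocyte markers, 8 of 8 in the table, summed to 9071 to 14085 FPKM across the controls, against 9592 to 21585 FPKM in JunBΔep mice. Skeletal muscle markers, 8 of 8 below every control and 5 called lower, took 2.92% to 3.47% of the FPKM sum in controls and 0.239% to 0.744% in JunBΔep mice. These calls, as all calls of lower genes, were lost under the replicate block and the number-series block, and with any 1 control or JunBΔep replicate 1 left out. Hair follicle keratins were high in control replicate 2 and JunBΔep replicate 1, adipocyte genes in JunBΔep replicate 2, and neutrophil and mucosal genes in JunBΔep replicate 0. In bulk skin, fewer cells of a type and less RNA per cell cannot be told apart.

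**Figure D1:**
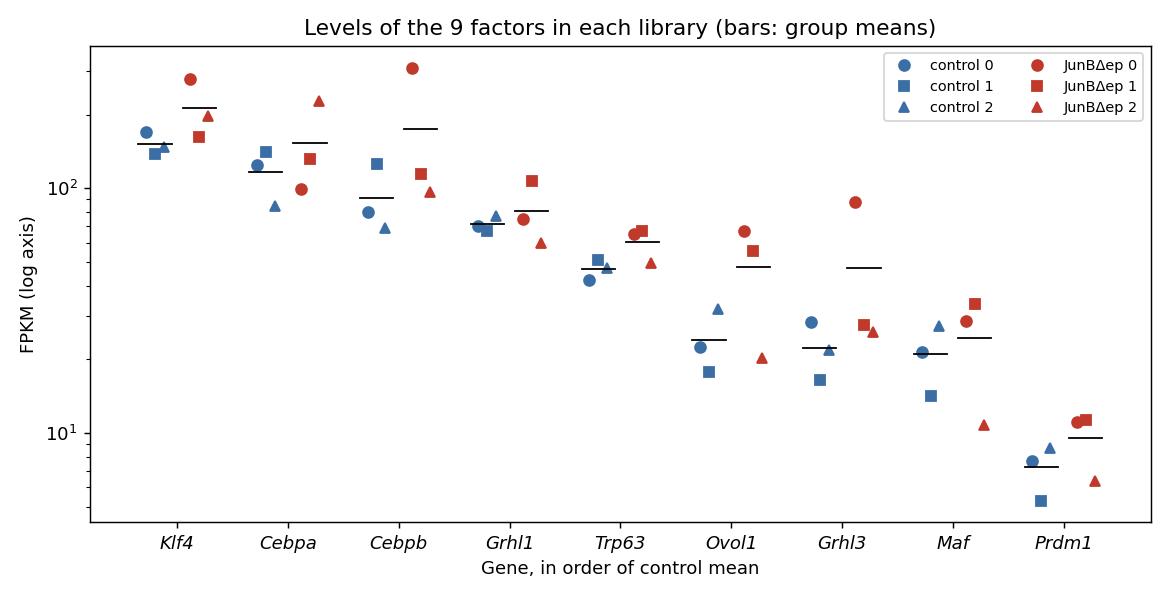
FPKM of each factor (log axis) in the 3 control libraries (blue) and the 3 libraries labelled JunBΔep (red), with symbols for the replicate number and black bars for group means. Every factor has its highest value in a JunBΔep library, and every factor has at least 1 JunBΔep value inside or below the control range.

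Promoter letters are given for Prdm1, since JunB is a subunit of AP-1 and its window alone held that motif, and for Grhl3, whose group means differed most. RefSeq promoters of build GRCm38.p6 were found for 6 of the 9 members, in 7 windows, and the 250 bases before the start were searched on both strands. The motifs were TGANTCA for AP-1, AACCNGTT for grainyhead, TTGCNNAA for C/EBP, CACCC for KLF factors and TGCTGA for Maf factors. Among 32817 such windows of all genes, 6.75% hold the AP-1 letters, 1.78% the grainyhead, 9.57% the C/EBP, 52.0% the KLF and 16.1% the Maf letters. The AP-1 letters were in 1 member window, that of Prdm1 (chr10:44458749-44458998, minus strand), beginning 48 bases before the start. They read TGAATCA there, and whether AP-1 or JunB binds them was not tested. The KLF letters were in the windows of Cebpa, Cebpb and Grhl3 and in 1 of the 2 of Grhl1, and Grhl3 (chr4:135573633-135573882, minus strand) held them 3 times. No member window held the other 3 motifs. Both sequences run 5′ to 3′ toward the start site, with the AP-1 match in capitals for Prdm1 and the KLF matches in capitals for Grhl3.
Prdm1: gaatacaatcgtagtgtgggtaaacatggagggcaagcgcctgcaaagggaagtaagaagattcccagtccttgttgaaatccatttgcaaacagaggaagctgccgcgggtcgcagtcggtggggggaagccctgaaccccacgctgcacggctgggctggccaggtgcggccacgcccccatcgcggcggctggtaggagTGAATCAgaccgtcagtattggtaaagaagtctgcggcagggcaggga
Grhl3: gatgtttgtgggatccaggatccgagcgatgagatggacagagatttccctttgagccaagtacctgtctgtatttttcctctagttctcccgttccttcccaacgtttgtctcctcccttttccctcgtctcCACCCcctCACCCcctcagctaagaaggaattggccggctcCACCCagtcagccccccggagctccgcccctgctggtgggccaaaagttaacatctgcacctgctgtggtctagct

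Control skin gives the order of the factors in whole-skin RNA, and FPKM, being per length, allows it. The controls differed in adipocyte, liver and hair follicle markers, as given below, and the order within keratinocytes was not tested. Klf4 was the most abundant at 152 ± 16.0 FPKM (SD, n = 3 control mice). Cebpa followed at 117 ± 28.9 FPKM, Cebpb at 91.5 ± 30.1 FPKM and Grhl1 at 71.4 ± 5.28 FPKM, and each of these overlapped its neighbour in the order. Trp63, at 46.8 ± 4.34 FPKM, was below all Grhl1 values and above all Ovol1 values. Ovol1 (24.1 ± 7.25 FPKM), Grhl3 (22.2 ± 5.94 FPKM) and Maf (21.0 ± 6.59 FPKM) could not be ordered. Prdm1 was lowest at 7.24 ± 1.75 FPKM, with all 3 values below those of Maf. The spread between control mice was not equal across genes. The coefficient of variation was 7.39%, 9.27% and 10.5% for Grhl1, Trp63 and Klf4, and 24.2% to 33.0% for the 6 others.

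Trp63, the basal regulator, lies on chromosome 16 from 25683849 to 25892188 on mm9 (GENCODE vM1, 8 annotated transcripts). It was at 42.2, 50.9 and 47.2 FPKM across the controls, against 64.8, 67.1 and 49.6 FPKM across the JunBΔep mice. The first 2 of the JunBΔep values were above every control, and the last was inside the control range. The mean was 60.5 ± 9.50 FPKM (SD, n = 3 JunBΔep mice), with a log2 difference of 0.36 (standard error 0.18, 95% interval -0.07 to 0.79, adjusted p = 0.719 from limma). That standard error was the smallest among the 9. Without JunBΔep replicate 2 the log2 difference was 0.49, and it lay between 0.28 and 0.49 over the 6 fits that leave out 1 library. The table sums all transcripts of the gene, so the long and the short amino-terminal forms of p63 were not told apart.

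Grhl1 and Grhl3, factors that switch on junction and barrier genes such as the transglutaminase Tgm1, are paralogs. Grhl1 (chromosome 12, 25257152 to 25302256) was at 70.3, 66.7 and 77.1 FPKM across the controls, against 74.7, 107 and 59.6 FPKM across the JunBΔep mice. The 3 JunBΔep mice thus lay inside, above and below the control range. Its log2 difference was 0.13 (standard error 0.24, 95% interval -0.45 to 0.72, adjusted p = 0.852 from limma) and -0.094 without JunBΔep replicate 1. Grhl3 (chromosome 4, 135097803 to 135129545) was at 28.3, 16.4 and 21.8 FPKM across the controls, against 88.3, 27.6 and 25.8 FPKM in JunBΔep mice. The first of these was 3.98 times the control mean, and the other 2 were inside the control range. The log2 difference of Grhl3 was 0.86 (standard error 0.51, 95% interval -0.38 to 2.11, adjusted p = 0.722 from limma); without JunBΔep replicate 0 it came to 0.30.

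Klf4, which acts late in the program and is needed for the barrier, lies on chromosome 4 from 55540013 to 55545347. It was at 169.8, 139 and 148 FPKM across the controls, against 280.3, 162 and 197 FPKM in JunBΔep mice. Replicates 0 and 2 were above every control and replicate 1 was inside their range. The mean of the JunBΔep mice was 213 ± 60.8 FPKM (SD, n = 3), with a log2 difference of 0.45 (standard error 0.24, 95% interval -0.14 to 1.05, adjusted p = 0.722 from limma). Leaving out JunBΔep replicate 0 gave 0.24.

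Ovol1, a zinc finger repressor that takes progenitor cells out of the cycle, lies on chromosome 19 from 5549137 to 5560575. Its values were 22.4, 17.8 and 32.02 FPKM across the controls, against 67.1, 55.5 and 20.3 FPKM in JunBΔep mice. Replicates 0 and 1 were 2.79 and 2.30 times the control mean, and replicate 2 was inside the control range. The log2 difference was 0.84 (standard error 0.49, 95% interval -0.34 to 2.03, adjusted p = 0.722 from limma), 0.51 without JunBΔep replicate 0 and 1.36 without JunBΔep replicate 2 (adjusted p = 0.130 from limma). That adjusted p was the lowest of any member in any alternative. Ovol1 was the only member at more than 2 times the control mean in 2 of the JunBΔep mice.

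Prdm1 encodes Blimp1, a repressor found in granular cells, in the inner root sheath of the hair and in several blood cell types. It lies on chromosome 10 from 44156983 to 44248307. It was at 7.72, 5.30 and 8.70 FPKM across the controls, against 11.1, 11.3 and 6.35 FPKM in JunBΔep mice, with replicates 0 and 1 above every control. The log2 difference was 0.37 (standard error 0.31, 95% interval -0.38 to 1.11, adjusted p = 0.722 from limma), with 0.17 when control replicate 1 was left out and 0.62 when JunBΔep replicate 2 was. Prdm1 was the lowest of the 9 in all 6 libraries, and its window before the start is the printed one with the AP-1 letters.

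The C/EBP pair, bZIP proteins that bind the same letters and are both on in cells that leave the basal layer, had opposite order in the JunBΔep mice. Cebpa (chromosome 7, 35904312 to 35906945, 1 exon) was at 124, 140.6 and 84.4 FPKM across the controls, against 99.3, 131 and 227 FPKM across the JunBΔep mice. Only replicate 2 was above the controls. Cebpb (chromosome 2, 167514415 to 167515918, 1 exon) was at 80.0, 126 and 68.7 FPKM across the controls, against 311, 114 and 96.3 FPKM in JunBΔep mice, and only replicate 0 was above the controls, at 3.40 times their mean. The log2 differences were 0.33 for Cebpa (standard error 0.36, 95% interval -0.54 to 1.21, adjusted p = 0.759 from limma) and 0.77 for Cebpb (standard error 0.49, 95% interval -0.44 to 1.97, adjusted p = 0.722 from limma). Cebpa was at 0.00 without JunBΔep replicate 2 and Cebpb at 0.24 without replicate 0.

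Maf, a large Maf factor of late keratinocytes, lies on chromosome 8 from 118206842 to 118231694. It was at 21.4, 14.2 and 27.4 FPKM across the controls, against 28.6, 33.6 and 10.8 FPKM in JunBΔep mice. Replicates 0 and 1 were above every control and replicate 2 below every control. The log2 difference was 0.11 (standard error 0.48, 95% interval -1.05 to 1.27, adjusted p = 0.944 from limma). It was negative, at -0.20, -0.14 and -0.083, without JunBΔep replicate 1, control replicate 1 or JunBΔep replicate 0.

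**Figure D2:**
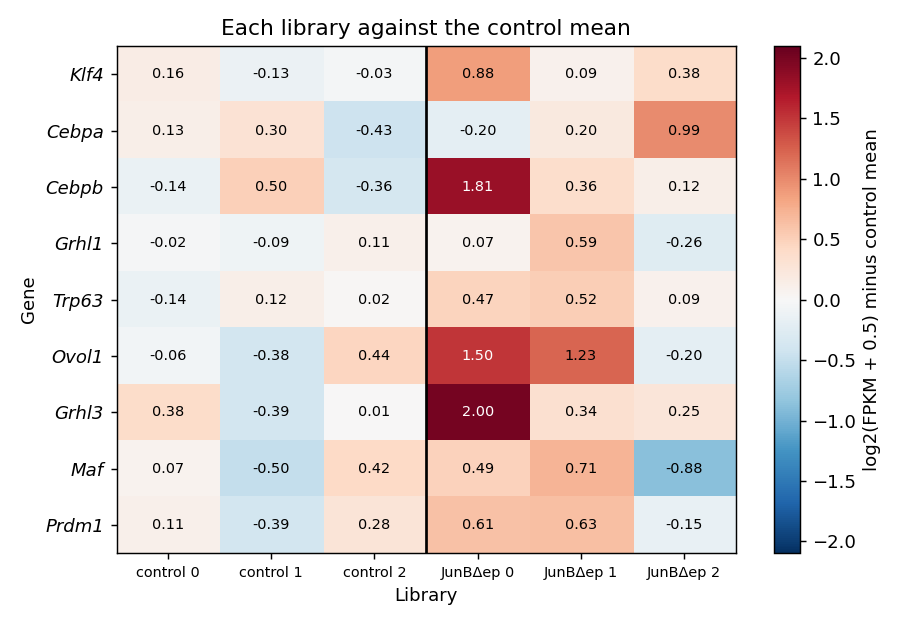
Log2(FPKM + 0.5) of each factor in each library minus the mean of the 3 control libraries, printed in each cell and coloured from blue (lower) to red (higher), with a line between control and JunBΔep libraries. JunBΔep replicate 0 is highest for Grhl3 (2.00), Cebpb (1.81) and Ovol1 (1.501), replicate 1 for Ovol1 (1.23), and replicate 2 for Cebpa (0.99), while Maf is at -0.88 there.

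By mouse, 7 of the 9 factors were above every control in JunBΔep replicate 0, where 37.4% of all tested genes were. In replicate 1 it was 5 of 9, beside 34.5% of tested genes, and in replicate 2 it was 2 of 9, beside 25.1%. Grhl1 and Maf were below every control in replicate 2, and no factor was below them in the other JunBΔep mice. The shares of tested genes below every control were 39.3%, 33.1% and 21.3% for replicates 0, 1 and 2, so 2 of 9 is near the share of all genes in replicate 2. The median log2 deviation of the 9 from the control mean was 0.61, 0.52 and 0.09 in JunBΔep replicates 0, 1 and 2, where that of all tested genes lay between -0.02 and 0.00. The highest of the 6 values was in a JunBΔep library for 9 of 9 factors and for 62.6% of tested genes.

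Added together, the 9 factors reached 567, 576 and 515 FPKM across the controls, against 1025, 709.5 and 693 FPKM across the JunBΔep mice. The 2 groups do not overlap in this sum, which is a description of genes chosen with earlier results known and was given no test. Nor did they for the 16 family relatives described below, at 288 to 306 FPKM (controls) and 321 to 559 FPKM (JunBΔep). For 22 other epidermal transcription factors the groups did overlap, at 641 to 781 and 712 to 1466 FPKM. What made up the difference in the sum of the 9 factors changed with the mouse. In replicate 0, Cebpb was 219.6 FPKM and Klf4 128 FPKM above their control means. In replicate 1 the largest parts were Grhl1, Ovol1 and Cebpb, at 36.1, 31.4 and 22.5 FPKM above. In replicate 2 Cebpa was 110.7 FPKM and Klf4 45.3 FPKM above, and Grhl1 11.8 FPKM below (an excess of -11.8 FPKM).

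The sample names fall into 2 number series whose meaning the labels leave unsaid. The first holds JunBΔep replicate 0 with control replicates 0 and 1, and the second JunBΔep replicates 1 and 2 with control replicate 2. Within the first series the JunBΔep value was higher for 8 of the 9 factors, all but Cebpa (a log2 difference of -0.41). Within the second it was higher for 7 of 9, with Prdm1 at -0.03 and Maf at -0.51. Grhl3 was at 2.01 in the first series and 0.28 in the second, Ovol1 at 1.72 and 0.07, and Cebpb at 1.63 and 0.61. Trp63 was at 0.48 and 0.29. Each series has 1 group with a single mouse, so these values carry no test.

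Inside each library, 5 ratios were computed to set late factors against the basal regulator and paralogs against each other. The Klf4 to Trp63 ratio was 4.02, 2.72 and 3.13 in controls and 4.33, 2.41 and 3.98 in JunBΔep replicates 0, 1 and 2. On the log2 scale the groups differed by 0.094, beside a control SD of 0.28 (exact permutation test, two-sided, p = 0.9, adjusted p = 0.9 over 5 ratios). The ratio of Ovol1 to Trp63 was 0.531, 0.350 and 0.678 in controls and 1.04, 0.827 and 0.409 in JunBΔep mice (p = 0.4, exact permutation test). For Grhl3 over Grhl1 the values were 0.402, 0.246 and 0.283 in controls and 1.18, 0.257 and 0.434 in JunBΔep mice (p = 0.4, exact permutation test). Grhl3 exceeded Grhl1 in JunBΔep replicate 0 and in no other library.

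Grhl3 over Trp63 was at 0.670, 0.323 and 0.463 in controls and at 1.36, 0.412 and 0.521 in JunBΔep mice (p = 0.6, exact permutation test). The Cebpa to Cebpb ratio ran from 1.12 to 1.56 in the controls and spread to 0.319, 1.15 and 2.36 in JunBΔep replicates 0, 1 and 2 (p = 0.8, exact permutation test). Its SD on the log2 scale was 0.24 in controls and 1.46 in JunBΔep mice. All 5 ratios had an adjusted p of 0.9 by the exact permutation test. On the log2 scale Ovol1 to Trp63 differed by 0.48, with 0.21 without JunBΔep replicate 0 and 0.87 without replicate 2. Grhl3 to Grhl1 differed by 0.73, with 0.13 without replicate 0 and 1.22 without replicate 1, and Grhl3 to Trp63 by 0.51, with -0.0073 and 0.85 under the same omissions. Cebpa to Cebpb differed by -0.43 and turned to 0.35 without replicate 0, while it was -1.08 without replicate 2. Klf4 to Trp63 came to -0.067 without replicate 0 and 0.35 without replicate 1. Quantile normalization took Klf4 to Trp63 from 0.094 to 0.17. For Cebpa to Cebpb, the JunBΔep mice lay on both sides of the control range.

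**Figure D3:**
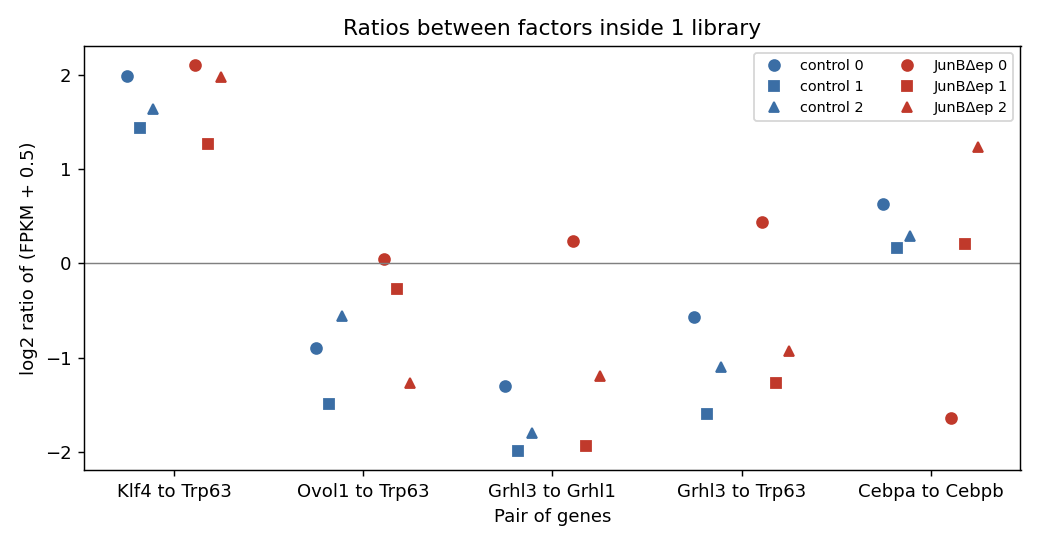
Log2 ratio of 2 factors inside each library, on the scale of FPKM + 0.5, for 3 control (blue) and 3 JunBΔep (red) libraries with symbols for the replicate number. Cebpa to Cebpb runs from -1.64 to 1.23 in JunBΔep mice and from 0.16 to 0.63 in controls, while Klf4 to Trp63 overlaps between the groups.

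Genes that mark other cells moved with some of the factors. Adipocyte markers (7 of 7 in the table, among them Adipoq and Plin1) summed to 2920, 5772 and 1871 FPKM across the controls, against 78.5, 2848 and 14260 FPKM across the JunBΔep mice. The library with the most adipocyte RNA, JunBΔep replicate 2, also had the most Cebpa. In JunBΔep replicate 0, where Adipoq was at 1.61 FPKM and Plin1 at 0.228 FPKM, Cebpa was still at 99.3 FPKM, inside the control range. Liver markers, 7 in the table, summed to 1859 FPKM in control replicate 0 and to at most 29.7 FPKM elsewhere, and Cebpa was at 124 FPKM in that control, between the other 2. Sebocyte markers, 7 in the table, went both ways, with 4 of 7 log2 differences negative and none called. Their sums, 39.9 to 74.4 FPKM for the controls and 57.0 to 82.0 FPKM for the JunBΔep mice, held more Elovl3 than any other marker in each library. Scd3 and Plin5 had log2 differences of -1.50 and -2.19. Both were below every control in 3 of 3 mice, as were 9.16% of tested genes and 8 of 8 skeletal muscle markers. How much of Cebpa comes from fat, liver or sebocytes was not tested.

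Neutrophil markers, of which 6 are in the table, summed to 14.2 to 1500 FPKM across the controls, against 24941, 23.5 and 137 FPKM across the JunBΔep mice. S100a8, which inflamed keratinocytes also make, gave most of the highest sum, and S100a9 is listed at 0 there. Csf3r was at 44.3 FPKM and Cxcr2 at 22.3 FPKM in JunBΔep replicate 0, against at most 3.70 FPKM and 2.45 FPKM in the others. Cebpb and Klf4, both also used by myeloid cells, had their highest values in that library. Control replicate 0 had the second largest neutrophil sum, and its Cebpb, at 80.0 FPKM, was inside the range of the other controls. Macrophage markers summed to 204 to 336 FPKM across the controls, against 343, 92.5 and 218 FPKM in JunBΔep mice, while Maf was highest in replicate 1, which had the lowest sum. The macrophage markers had negative log2 differences in 7 of 7 cases, none called. T cell markers, 7 in the table, had negative log2 differences in 6 of 7 cases, none called. Their sums, 68.7 to 121 FPKM across the controls and 71.8 to 135 FPKM for the JunBΔep mice, were mostly Thy1, which other skin cells also make. The part of these cells in the factors was not tested.

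Hair follicle markers, 8 genes of the growing hair, summed to 2.81, 2.94 and 3964 FPKM across the controls, against 336, 6896 and 111 FPKM across the JunBΔep mice. The 2 libraries with the largest sums, control replicate 2 and JunBΔep replicate 1, had the highest Grhl1, Ovol1, Prdm1 and Maf of their own group, except that Ovol1 was higher in JunBΔep replicate 0. JunBΔep replicate 2, whose sum was also above those of controls 0 and 1, had the lowest Maf of the 6 libraries. Within the controls, Maf was at 27.4 FPKM at the largest sum and at 21.4 and 14.2 FPKM in the others, and Ovol1 at 32.02 FPKM against 22.4 and 17.8 FPKM. Dlx3, a factor of the hair matrix as well as of the epidermis, was at 71.5 and 217 FPKM in these 2 libraries and at 10.4 to 17.7 FPKM in the others. Mucosal genes, 6 in the table, summed to 3828 FPKM in JunBΔep replicate 0 and to at most 31.7 FPKM elsewhere, and Krt13 was at 1990 FPKM there. The part of hair growth or of mucosal epithelium in the factors was not tested.

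**Figure D4:**
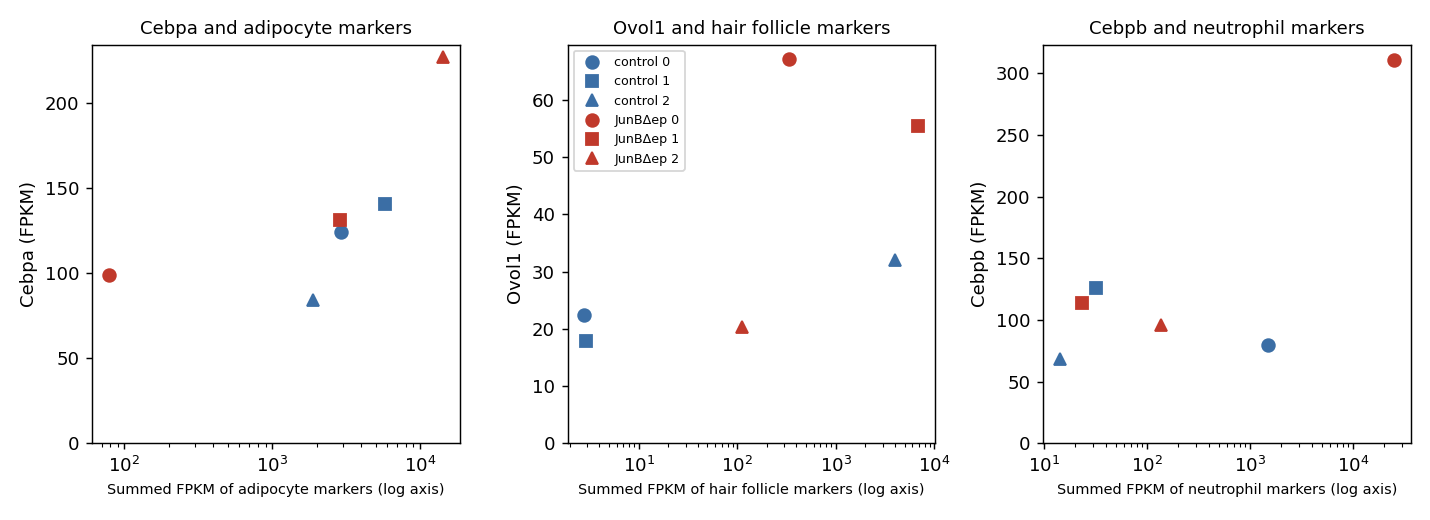
FPKM of Cebpa, Ovol1 and Cebpb (linear axis from 0) against the summed FPKM of adipocyte, hair follicle and neutrophil markers (log axis) in each of the 6 libraries, controls in blue and JunBΔep in red. Cebpa is highest at the largest adipocyte sum (14260 FPKM), Cebpb at the largest neutrophil sum (24941 FPKM), and Ovol1 is 67.1 FPKM at a middling hair follicle sum of 336 FPKM.

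Epidermal content was gauged in 3 ways, and the factors' standing against it changed with the gauge. Relative to the median log2 level of Krt5, Itga6, Itgb4, Col17a1, Lamb3 and Perp, the mean log2 level was higher in JunBΔep mice for 9 of 9 factors and for 75.6% of all tested genes. That median was itself lower in JunBΔep mice, by a log2 difference of -0.28, although 4 of its 6 genes had positive log2 differences, and Col17a1, at a log2 difference of -0.74, differed most. Klf4 was then above every control in 3 of 3 mice, as were 5.69% of tested genes. With Krt5 alone, Klf4 was above every control in 2 of 3 mice and Grhl3 and Cebpb in 3 of 3, as were 1.92% of tested genes. With the median of the 6 genes' deviations from their own control means, a gauge chosen after seeing the data, 0 of the 9 factors were above every control in 3 of 3 mice, beside 1.66% of tested genes. The log2 differences relative to that gauge ran from -0.0061 for Maf to 0.75 for Grhl3, beside a median of -0.082 over all tested genes. Which gauge follows the epidermis was not tested.

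The family relatives of the 9 were a list of 16 genes, all tested, with 0 called in either direction, 12 with a positive log2 difference and a median log2 difference of 0.37. Maff, a small Maf protein without a domain for activation, was the only relative above every control in all 3 JunBΔep mice, at 31.2, 13.9 and 18.3 FPKM against 9.19, 12.4 and 10.3 FPKM (adjusted p = 0.538 from limma). That is 1 of 16 relatives, beside 5.62% of all tested genes. Grhl2, the family member of most simple and stratified epithelia, was at 13.2, 15.1 and 9.08 FPKM against 7.82, 6.48 and 11.4 FPKM. Cebpd was at 62.4, 11.3 and 35.5 FPKM against 16.3, 24.0 and 18.4 FPKM, with its highest value in the same library as Cebpb. Ovol2, the paralog that keeps cells epithelial, was lower in replicate 0 than in any control, at 2.59 FPKM against 5.15 to 10.3 FPKM. Without JunBΔep replicate 0, the median of the relatives was 0.05.

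Other epidermal transcription factors were a list of 22 genes, all tested, with 0 called, 17 with a positive log2 difference and a median log2 difference of 0.52. Leaving out JunBΔep replicate 1 brought that median to 0.11. Tfap2c, an AP-2 factor that works beside p63, was at 50.9, 41.5 and 25.2 FPKM across the JunBΔep mice against 19.9, 22.2 and 22.7 FPKM (adjusted p = 0.517 from limma). It and Barx2 were the 2 factors of the list of 22 above every control in 3 of 3 mice, beside 5.62% of all tested genes. Zfp750, a target of p63 that works with Klf4, was at 58.3, 69.7 and 37.6 FPKM against 40.8, 29.5 and 45.0 FPKM. It was above every control in replicates 0 and 1 and inside the control range in replicate 2, as Trp63 was. Gata3 went the other way in replicate 0, at 12.8 FPKM against 62.0 to 92.5 FPKM for the controls, while 95.1 and 64.5 FPKM were measured in the other 2 JunBΔep mice.

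Genes that these factors are known to act on were counted by layer, and none was called. By the sign of the log2 difference, the basal list had 16 tested genes with 8 higher, 8 lower and a median log2 difference of 0.02. The spinous list had 12 tested genes with 8 higher and a median of 0.33, and the granular and envelope list 24 tested genes with 18 higher and a median of 0.33. Without JunBΔep replicate 0 the last 2 medians were -0.16 and -0.01. In JunBΔep replicates 0, 1 and 2 the granular and envelope median stood at 0.97, -0.02 and 0.07 from the control mean. The factor medians of 0.61, 0.52 and 0.09 in the same mice stand beside it. The envelope genes of replicate 1 went both ways, from Tgm3 at 1.70, Sprr1a at 1.59 and Casp14 at 1.26 above the control mean to Flg2 at -0.60. Tgm3 was nevertheless inside the control range there, at 9.11 FPKM against 0.465 to 11.3 FPKM. Sprr1a and Casp14 were above every control and Flg2 below every control.

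Among single genes of the layer lists, Tgm1 was at 31.99, 26.4 and 39.9 FPKM across the controls, against 144, 61.9 and 40.5 FPKM across the JunBΔep mice. It was above every control in 3 of 3 mice (log2 difference 1.13, adjusted p = 0.671 from limma). Tgm5 was at 21.2, 29.5 and 16.7 FPKM across the controls, against 21.4, 16.3 and 15.7 FPKM in JunBΔep mice. Dsg1a, the desmosomal cadherin of the upper layers and a known target of Grhl1, was below every control in 3 of 3 mice, at 58.1, 69.0 and 62.2 FPKM against 112.9, 101 and 85.0 FPKM (log2 difference -0.65, adjusted p = 0.257 from limma). Dsg1b and Dsc1 of the same list went the other way, at log2 differences of 0.92 and 0.51. Both were above every control in replicate 0 only. Loricrin (Lor), the main envelope protein, gave 823 FPKM for replicate 0, 1829 FPKM for replicate 1 and 2316 FPKM for replicate 2, beside 1408 to 3011 FPKM in controls. Casp14, the protease of cornification, was at 303, 73.0 and 37.4 FPKM against 31.6, 18.7 and 46.6 FPKM. Sprr1b was at 2557 FPKM in replicate 0 and at most 6.06 FPKM elsewhere. Envelope genes were both higher and lower than controls in the library with the highest Klf4 and Grhl3.

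**Figure D5:**
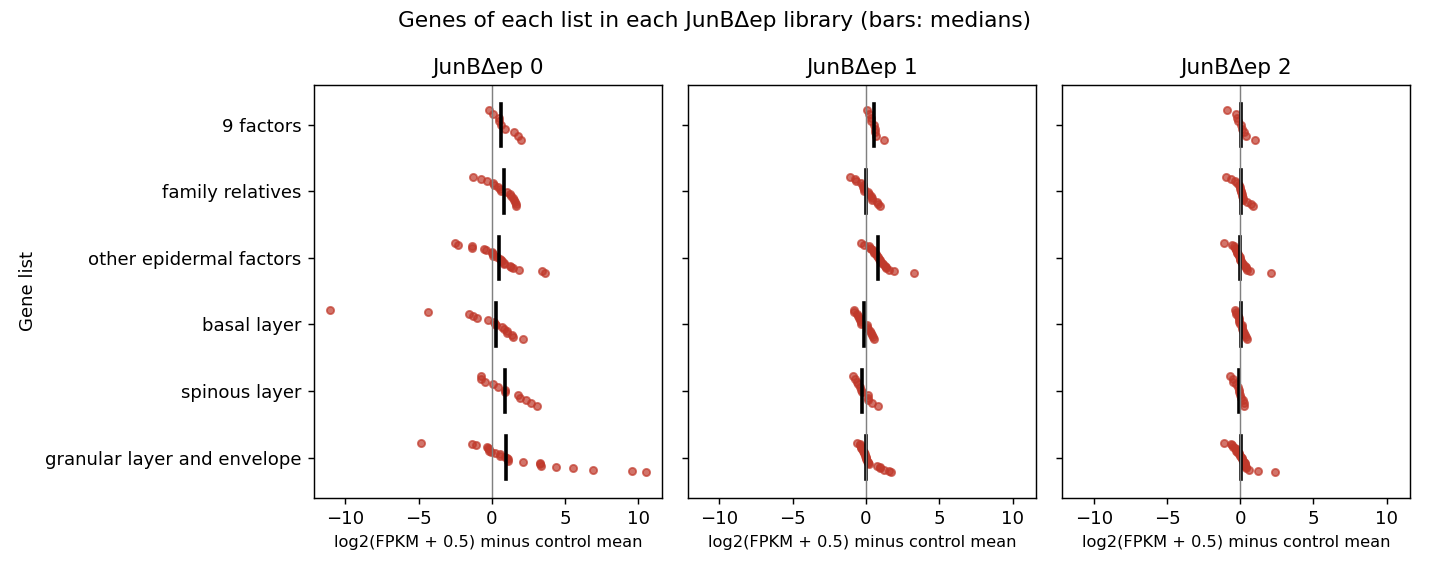
Log2(FPKM + 0.5) minus the control mean for every tested gene of 6 lists in each JunBΔep library, 1 point a gene, with black bars for medians and the same axis in all 3 panels. The 9 factors have medians of 0.61, 0.52 and 0.09 in replicates 0, 1 and 2, and the granular and envelope genes 0.97, -0.02 and 0.07. The lowest point in replicate 0 is Krt14, listed at 0.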

How the data were processed

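Whole skin of 3 control and 3 JunBΔep mice was sequenced. The authors aligned reads to mm9 with TopHat 2.0.10, Bowtie 1.0.0 and SAMtools 0.1.19, and deposited FPKM per gene and mouse. Cufflinks is named in the submitters' processing notes without a role, and no source used here states a further scaling between libraries. The authors tested read counts, which were not analysed here.

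FPKM were transformed to log2(FPKM + 0.5) and compared by limma (3.58.1, R 4.3.3, trended variance, two-sided) in all 17021 genes averaging 0.1 FPKM or more, with Benjamini-Hochberg adjustment at 0.05. The scale understates changes of low genes. Ratios were compared by an exact permutation test. The procedure was tested on simulated data. Each mouse is 1 replicate. Depth is unknown, so no counting interval is given. Among genes below 0.15 FPKM, 14.2% to 17.4% share 1 ratio to control replicate 0, which puts the scaling totals at 0.955 to 1.14 times its own.

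The genes named are the members, Junb, genes of hand-written lists and, for each member, the 2 genes with the most like pattern. Members and lists were chosen with earlier results of these data known. The protein comparison that was planned was not made, and some genes of these lists are not reported here. The alternatives changed the pseudocount (0.1, 1) and the filter (none, 1 FPKM) and used 3 scalings, limma with no trend and with robust variances, 2 blocks, listed zeros as missing, an adjusted p of 0.1 and each library left out, with another gauge of epidermal content added after seeing the data. Positions are from GENCODE vM1 on mm9; figures were drawn in Python 3.11.15.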

Additional observations from a re-analysis of the deposited data

How the results depend on the processing

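Of 162 alternative values of the 9 members' log2 differences, 158 kept their direction and their side of the threshold, and none had an adjusted p below 0.05 (the lowest was 0.130, from limma). The filters, variance settings, replicate block and listed zeros left every member's log2 difference at its main value. Their kept direction was fixed in advance and says nothing about stability. The 4 reversed values came from leaving out 1 library. Over the fits with 1 library left out Grhl1 ran from -0.094 to 0.33, Maf from -0.20 to 0.60 and Junb from -0.84 (without JunBΔep replicate 0) to 0.25. Grhl1 was at -0.094 without JunBΔep replicate 1, and Maf at -0.20 without JunBΔep replicate 1, -0.14 without control replicate 1 and -0.083 without JunBΔep replicate 0. Junb was at 0.14 with a block on the number series and 0.25 without JunBΔep replicate 2. The number of genes called lower, 235, was 0 with a replicate block and 0 with a block on the number series, and with 1 library left out it ran from 0 (each control, or JunBΔep replicate 1) to 254, with 125 without JunBΔep replicate 0. The number called higher ran from 0 to 10, the 10 without JunBΔep replicate 0. The replicate block changed no other call, and same-numbered libraries had deviations correlated at 0.12, -0.23 and -0.43 across genes, so the numbers pair no mice. The causes were not tested. Other scalings moved the median log2 difference of all genes by at most 0.04. The depth of the libraries is unknown, and 3 mice a group limit every interval given.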

Other observations

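Each factor was set beside the genes with the most similar pattern over the libraries. Likeness was the root mean square difference of centred log2 values over 6 libraries, among genes at a mean of 1 FPKM or more. Nearest to Ovol1 was Gsdma, a gasdermin of the skin, at 0.0786, and nearest to Klf4 was Cmip at 0.0400. Trp63 was nearest to Fam203a at 0.0367 and Nap1l1 at 0.0374, Grhl1 to Zfp266 at 0.0353, and Prdm1 to Paxip1 at 0.0425. Cebpb was nearest to Avpi1 at 0.0644 and Grhl3 to Abcg4 at 0.114. For Cebpa the nearest gene, Gfra4 at 0.140, was less close. With 6 libraries and this many genes, a close pattern is a description only.

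Among factors of the hair follicle and of the epidermis, Lhx2, which marks follicle stem cells, reached 56.6 FPKM (JunBΔep replicate 1) and 3.25 FPKM (replicate 0), beside 12.1 to 22.8 FPKM in controls. Foxn1, needed for the growing hair, was at 14.8 FPKM in control replicate 2 and 21.5 FPKM in JunBΔep replicate 1, the 2 libraries with high hair keratins, and at 9.59 FPKM or lower in the others. Ehf and Elf3, epithelial ETS factors, were at 55.9 and 17.0 FPKM in JunBΔep replicate 0, against at most 16.0 and 6.37 FPKM in the others. Runx1 was at 9.10, 7.00 and 4.19 FPKM across the JunBΔep mice, against 2.51, 2.36 and 4.26 FPKM across the controls, and Hopx at 232, 246 and 105 FPKM against 77.0, 107 and 102 FPKM. None had an adjusted p below 0.05 from limma, and no cause was tested.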
